A study of Mus musculus with 2 samples.

Results

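Mir652, Mir361, Mir186, Mir423, Mir151, Mir28 (named Mir28a in the annotation), Mir342, Mir340, Mir744 and Mir872 are microRNA (miRNA) genes described as single-copy and carried by broadly expressed protein-coding host genes. They were taken by name and not by their counts, but with earlier results of these data known. All 10 were found among the 1973 entries of the deposited tables. The tables come from small RNA sequencing of the heart of mouse embryos of strain B6NCrl at embryonic day 14.5, from tissue with no treatment or genetic change named in the labels. The 2 libraries form 1 group, biological replicates 1 and 2, collected on 15 and 17 July 2014. By 1 label each library came from a single heart, but the sex is given as pooled male and female, and it is not known which is right. The spread given here is that between 2 libraries. There is no second condition, and levels, their order and the agreement of the libraries are what these data can show.

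A miRNA inside an intron is usually transcribed together with its host gene. The hairpin is cut from the transcript by Drosha in the nucleus, and Dicer then releases a short duplex, of which 1 strand or the other (the 5p or 3p arm) is loaded onto an Argonaute protein. Target messages are recognised mainly through the seed, bases 2 to 8 of the loaded strand, and are repressed. An intronic miRNA of a broadly active host tends to be present in many tissues, and miR-423 and miR-361 have been used as reference miRNAs for that reason. Reads of both arms fall on the same entry in these tables, so the arms could not be told apart.

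The mature sequences show what the counted reads can be, and those of the most abundant, the least abundant and the seed-sharing miRNAs are given, 5′ to 3′, with the seed in capitals (RefSeq, build GRCm38.p6). They are Mir652 and Mir744 (the highest), Mir342 (the widest gap between libraries), Mir186 and Mir340 (the lowest), and the pairs of arms that share a seed. A mature sequence was found for 9 of the 10 genes, all but Mir151.
miR-652-5p: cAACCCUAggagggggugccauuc
miR-652-3p: aAUGGCGCcacuaggguugug
miR-744-5p: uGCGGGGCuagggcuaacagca
miR-744-3p: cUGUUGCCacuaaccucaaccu
miR-342-5p: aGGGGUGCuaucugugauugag
miR-342-3p: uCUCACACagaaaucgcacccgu
miR-186-5p: cAAAGAAUucuccuuuugggcu
miR-186-3p: gCCCUAAGgugaauuuuuuggg
miR-340-5p: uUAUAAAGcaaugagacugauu
miR-340-3p: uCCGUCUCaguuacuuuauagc
miR-28a-5p: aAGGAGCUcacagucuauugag
miR-708-5p: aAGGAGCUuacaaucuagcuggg
miR-423-5p: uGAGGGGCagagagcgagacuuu
miR-6921-5p: uGAGGGGCaugagguaggaagc

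No 2 arms of these 9 genes shared a seed. The G and C content of the arms ran from 27.3% in miR-340-5p and 38.1% in miR-872-5p to 63.6% in miR-744-5p and 65.2% in miR-423-3p, with 62.5% and 57.1% in miR-652-5p and miR-652-3p. Of the 18 mature sequences found, 18 had no exact copy in an annotated transcript of another gene. The first 18 bases of miR-652-5p also occur in a transcript of Fitm2, a gene of lipid droplet formation. Reads that map to several places are kept apart from the gene counts, so a copy elsewhere could lower a level. Intergenic and intronic sequence was not searched.

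Each of the 10 hairpins lies in an intron of 1 protein-coding gene, on its strand, and overlaps no exon of a coding transcript (coordinates of mm10, GENCODE M21 annotation). In 3 of the hosts, the encoded protein acts in adhesion or the actin cytoskeleton. Mir151 (ENSMUSG00000065612.1, chromosome 15, 73254815 to 73254882, minus strand) lies in intron 22 of Ptk2, which encodes focal adhesion kinase. Mir28a (ENSMUSG00000065494.1, chromosome 16, 24827855 to 24827940, plus strand) lies in intron 8 of Lpp, a LIM domain protein of focal adhesions. Mir342 (ENSMUSG00000065436.1, chromosome 12, 108658620 to 108658718, plus strand) lies in intron 3 of Evl, an actin regulator of the Ena/VASP family.

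The hosts Zranb2 and Nsrp1 encode splicing factors. Mir186 (ENSMUSG00000065431.1, chromosome 3, 157544279 to 157544349, plus strand) is in intron 8 of Zranb2, and Mir423 (ENSMUSG00000065518.2, chromosome 11, 77078064 to 77078172, minus strand) is in intron 1 of Nsrp1. The hosts Map2k4, a kinase upstream of JNK, and Rnf130, a ubiquitin ligase, carry Mir744 (ENSMUSG00000076460.1, chromosome 11, 65734733 to 65734832, minus strand, intron 3) and Mir340 (ENSMUSG00000065417.1, chromosome 11, 50069702 to 50069799, plus strand, intron 2). The remaining hosts act in membrane traffic, cilia or the membrane itself. Mir361 (ENSMUSG00000065510.1, X chromosome, 113074824 to 113074893, minus strand) is in intron 9 of Chm, which encodes a Rab escort protein. Mir872 (ENSMUSG00000077921.1, chromosome 4, 94665157 to 94665237, plus strand) is in intron 13 of Ift74, a part of the intraflagellar transport machinery. Mir652 (ENSMUSG00000076011.1, X chromosome, 142739000 to 142739097, plus strand) is in intron 2 of Tmem164, a transmembrane protein. Host transcripts were not measured in these libraries, so broad expression of the hosts is a statement from outside the data.

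The host introns ranged from 1634 bases for Mir423 to 82814 bases for Mir28a. Mir423 and Mir744 lie close to the upstream exon, at 206 and 359 bases, while Mir652 lies 56050 bases and Mir28a 65578 bases into their introns. The hairpins stand alone rather than in clusters. The nearest other annotated miRNA gene was 63130 bases away for Mir342 and 162446 bases away for Mir340, with larger distances for the other 8.

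**Figure D1:**
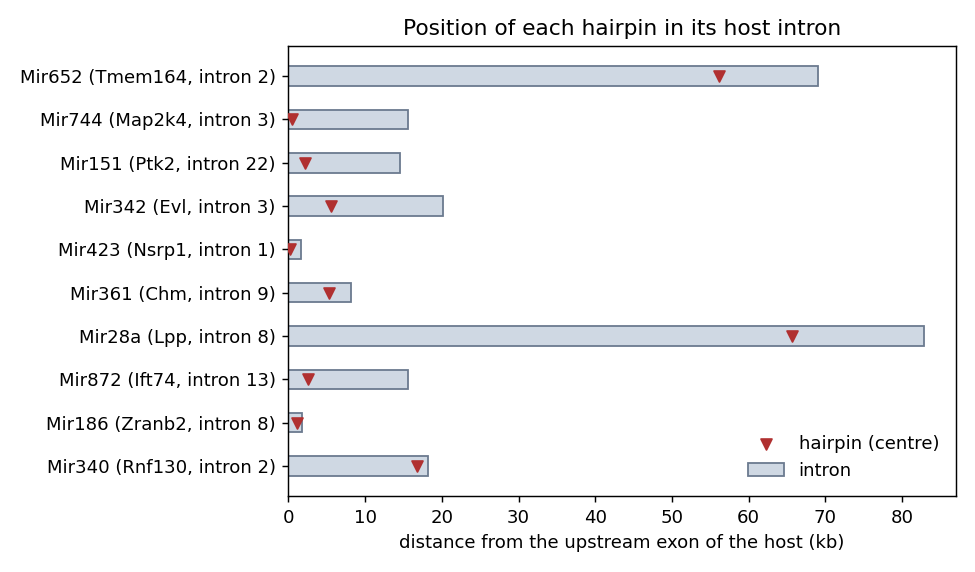
Each bar is the host intron that holds a hairpin, drawn to scale in kilobases from the upstream exon of the host's principal transcript, and the triangle is the centre of the hairpin. Mir652 and Mir28a lie deep in long introns, and Mir423 and Mir744 lie within 206 and 359 bases of the upstream exon.

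The label of single-copy genes held for 9 of the 10 by hairpin sequence. Those 9 shared no stretch of 20 bases with any other annotated hairpin on either strand. A hairpin annotated on the opposite strand of the same place also counts as sharing. Where sharing is named below, under-counting applies only if the other hairpin lies elsewhere in the genome, which was not looked up. Mir28a shared a stretch of 20 bases with Mir28c, and the longest stretch that Mir151 shared with another hairpin, 17 bases, was also with Mir28c. Mir28c has no entry in the tables and was not analysed here. Neither arm of Mir28a matched another annotated hairpin with at most 1 mismatch, so the shared stretch is not a whole mature arm, but the level of Mir28a is less certain than those of the others.

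All 10 miRNAs were present in both libraries, at levels that spanned 69.0-fold. Levels are given as CPM, the reads of an entry on the counted strand scaled so that all entries sum to 1000000 in each library. Replicate 1 held 4327424 such reads and replicate 2 held 3839984. Every one of the 10 had at least 10 counts in each library, as did 17.1% of all 1973 entries. The lowest level in a library was 160 CPM, and 7 of the 10 exceeded 1000 CPM on average, against 78 of the 1973 entries. Together the 10 made up 3.15% of the counts in replicate 1 (exact Clopper-Pearson 95% interval 3.13 to 3.17) and 3.06% in replicate 2 (3.05 to 3.08). Like the intervals below, these account for counting error alone: no molecular identifiers are named, and PCR copies of 1 molecule are counted as separate reads.

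Mir652 was the highest. It had 49210 counts in replicate 1 and 44076 in replicate 2, or 11372 and 11478 CPM, and ranked 21 and 20 among all entries. It alone held 36.1% of the counts of the 10 in replicate 1 and 37.5% in replicate 2. Its mean was 11425 ± 75.3 CPM (SD, n = 2), the smallest spread relative to the mean among the 10 in CPM. With TMM factors the libraries were closer for Mir151 (log2 ratio 0.01), Mir361 (-0.037) and Mir340 (-0.038) than for Mir652 (0.05). With median-of-ratios factors they were closer for Mir340, Mir361, Mir28a and Mir151 than for Mir652 (0.10). Its level was 2.27 times that of the next, Mir744, with no overlap between their libraries.

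Mir744 and Mir151 followed at similar levels. Mir744, in the JNK pathway gene Map2k4, had 5286 CPM in replicate 1 and 4763 CPM in replicate 2. Mir151, in the focal adhesion kinase gene, had 4441 and 4625 CPM. The lower library of Mir744 lay just above the higher library of Mir151, and within replicate 2 the 2 differed by 1.03-fold.

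Mir342, Mir423 and Mir361 came next, with Mir342 above Mir361 in both libraries and Mir423 overlapping both. Mir342, in Evl, had 3188 CPM in replicate 1 and 2504 CPM in replicate 2. Mir423, in Nsrp1, had 2528 and 2061 CPM. Mir361, in Chm, had 2113 and 2268 CPM. Mir342 exceeded Mir423 within each library, but the replicate 2 value of Mir342 lay below the replicate 1 value of Mir423. Mir423 lay above Mir361 in replicate 1 and below it in replicate 2, so the levels of Mir423 and Mir361 did not differ beyond the spread between libraries.

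Mir28a and Mir872 lay near 1000 CPM. Mir28a, in Lpp, had 5346 counts (1235 CPM) in replicate 1 and 5248 (1367 CPM) in replicate 2. Mir872, in the cilium gene Ift74, had 3780 counts (873 CPM) and 3930 (1023 CPM). The libraries of Mir28a lay above those of Mir872, by a mean of 1.37-fold.

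Mir186 and Mir340 were the lowest. Mir186, in Zranb2, had 1286 counts (297 CPM) in replicate 1 and 1428 (372 CPM) in replicate 2, 2.84 times below Mir872 on average. Mir340, in Rnf130, had 691 counts (160 CPM) and 659 (172 CPM), a further 2.02 times lower. Neither overlapped its neighbour in the order. Over all 10, the libraries of 7 of the 9 neighbouring pairs did not overlap in CPM, and 8 pairs kept their order within both libraries.

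**Figure D2:**
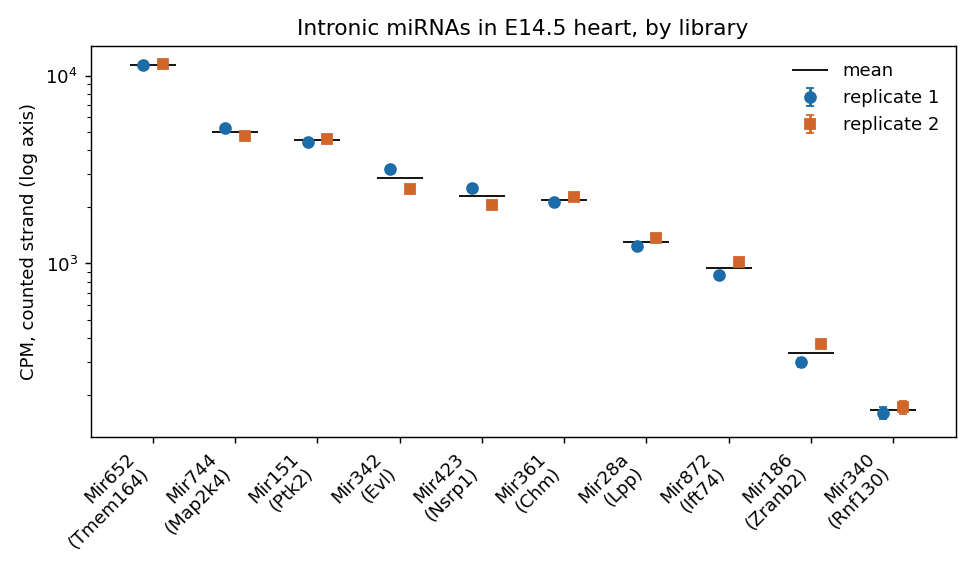
CPM on a log axis for each miRNA, with its host gene in brackets, from the highest to the lowest mean. Circles are replicate 1, squares replicate 2, error bars the exact Poisson 95% interval of the count (mostly smaller than the symbol) and black lines the mean. Mir652 stands at 11372 and 11478 CPM, and Mir423 overlaps both Mir342 and Mir361.

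CPM are not divided by length, because a library of this kind reads the mature miRNA rather than the hairpin. When counts were divided by the annotated hairpin length (68 to 109 bases), a setting chosen after seeing the data, the order changed among the first 6. Mir151 then stood above Mir744 (5404 against 4075 length-scaled CPM), and Mir361 (2536) above Mir342 (2332) and Mir423 (1708). Mir652 stayed highest, and Mir28a, Mir872, Mir186 and Mir340 kept the last 4 places.

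The libraries differed little for these miRNAs. None of the 10 differed by 1.5-fold or more, against 4.12% of the 170 entries with a mean of at least 100 CPM, so a count of 0 among 10 is near the background. The median absolute log2 ratio of replicate 1 to replicate 2, on the log2(CPM + 1) scale, was 0.15 for the 10 and 0.19 for the 170 entries. The coefficient of variation over the libraries ranged from 0.659% for Mir652 to 17.0% for Mir342, with a median of 7.24%. In CPM the difference exceeded counting error for 8 of the 10, as it did for 78.2% of the 170 entries.

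Mir342 had the widest gap between libraries. Its level in replicate 1 was 1.27 times that in replicate 2 (exact conditional binomial 95% interval 1.24 to 1.31). The others higher in replicate 1 were Mir423, at 1.23 times (1.19 to 1.26), and Mir744, at 1.11 times (1.09 to 1.13). The remaining 7 were higher in replicate 2, as were 59.6% of the 337 detected entries, so the split is near the background. In CPM the gap of Mir186 was the second widest, while with TMM or median-of-ratios factors that of Mir423 was wider. Mir186 had a CPM ratio of replicate 1 to replicate 2 of 0.799 (0.741 to 0.862). Mir872 was higher in replicate 2 by 1.17-fold (1.12 to 1.23). For Mir652 (1.01-fold, 0.996 to 1.02) and Mir340 (1.07-fold, 0.964 to 1.20) the interval included 1. The split of 3 and 7 depended on scaling: with TMM factors Mir151 and Mir652, and with median-of-ratios factors also Mir361 and Mir340, were higher in replicate 1, and the split became 5 and 5, and 7 and 3. The direction held under both scalings for Mir342, Mir423, Mir744, Mir28a, Mir872 and Mir186.

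**Figure D3:**
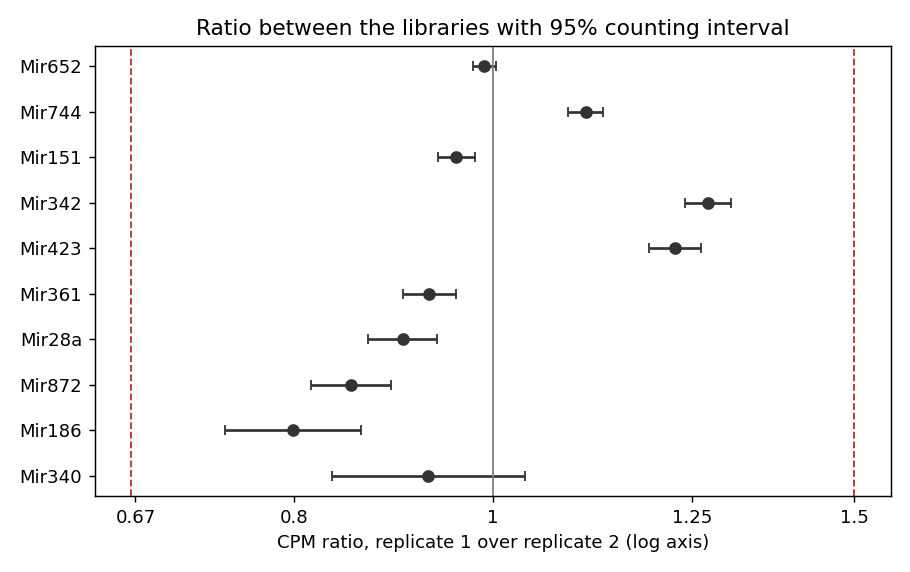
CPM ratio of replicate 1 over replicate 2 on a log axis, with the exact conditional binomial 95% interval of the counts. The solid line marks equal levels and the dashed lines a 1.5-fold difference. All 10 points lie between the dashed lines, with Mir342 farthest to the right at 1.27.

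Of 8 heart muscle miRNAs listed, 7 had an entry, and their summed level was 75760 and 79364 CPM in replicates 1 and 2. Mir208b carried most of that sum, with 66314 and 66822 CPM, while the 4 that share 20 bases with another hairpin (Mir1a-1, Mir133a-1, Mir133a-2 and Mir133b) averaged 0.882 to 2.99 CPM and can be under-counted. Mir342 is known from blood and immune cells as well as other tissues, so the levels of blood miRNAs in each library are given beside it. Of 6 white blood cell miRNAs listed, 5 had an entry (all but Mir142a), and their summed level was 555 CPM (replicate 1) and 456 CPM (replicate 2). Mir223, the myeloid miRNA, had 345 and 290 CPM, Mir155 had 134 and 98.4 CPM, Mir146 (miR-146a) had 62.2 and 50.8 CPM, Mir150 had 13.9 and 16.4 CPM, and Mir142b was at 0 in both. Mir451a and Mir144, the red blood cell pair, had a summed level of 1184 and 489 CPM. Mir451a, Mir146 and Mir142b share 20 bases with another hairpin on either strand, and can be under-counted if it lies elsewhere in the genome. Mir342 was above the summed level of either blood list in both libraries, which does not show how much of Mir342 came from blood cells. The part that blood cells had in its ratio was not tested, and in whole tissue fewer cells of a type and less RNA per cell cannot be told apart. Among the lists other than blood, the CPM sum of fibroblasts was higher in replicate 1 (27770 and 27068) and the rest in replicate 2. Mir21a carried the fibroblast sum (24189 and 23309 CPM), and the 3 others of that list were higher in replicate 2. The sums of heart muscle, endothelial and liver lists had CPM ratios of replicate 1 to replicate 2 of 0.955, 0.932 and 0.941. Median-of-ratios factors raise every log2 ratio by 0.114, more than these gaps, so their direction depends on scaling. In the fibroblast list Mir199a-1 and Mir199a-2 share 20 bases with another hairpin and can be under-counted. The smooth muscle pair, Mir143 and Mir145a, had a summed level of 64494 CPM in replicate 1 and 87098 CPM in replicate 2, and all 10 epithelial miRNAs were higher in replicate 2 (753 and 1339 CPM in sum). Mir137, the 1 neuronal miRNA above 0 of 5 with an entry, had 13.2 and 85.7 CPM. The 4 neuronal entries at 0 (Mir124a-2, Mir124a-3, Mir9-2 and Mir9-3) share 20 bases with another hairpin. They can be under-counted, so a count of 0 does not show that they were absent. The part of these lists in the 7 miRNAs higher in replicate 2 was not tested.

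No reads fell on the opposite strand of any of the 10 entries in either library, against 253914 on the counted strand. Among the 170 entries with a mean of at least 100 CPM, 92.9% likewise had none, so this is the usual case. It holds for Mir151 too, although the antisense transcript 1700085D07Rik is annotated across it. Over all entries 4.72% of the gene reads of replicate 1 and 4.58% of those of replicate 2 lay on the opposite strand.

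Among intronic miRNAs the 10 were spread through the upper part of the range. By annotation, 446 entries lie in an intron of a protein-coding gene on the same strand and share no stretch of 20 bases with another hairpin, and 103 of them (23.1%) had at least 10 counts in each library. Mir28a is left out of this class because of Mir28c. The other 9 ranked 6 (Mir652), 9 (Mir744), 10 (Mir151), 18 (Mir342), 21 (Mir423), 23 (Mir361), 28 (Mir872), 37 (Mir186) and 49 (Mir340) of the 103. The median level of the 10 was 2242 CPM, against 114 CPM for the 103. The class of 446 as a whole held 36.8% ± 1.07 of the counts (SD, n = 2).

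**Figure D4:**
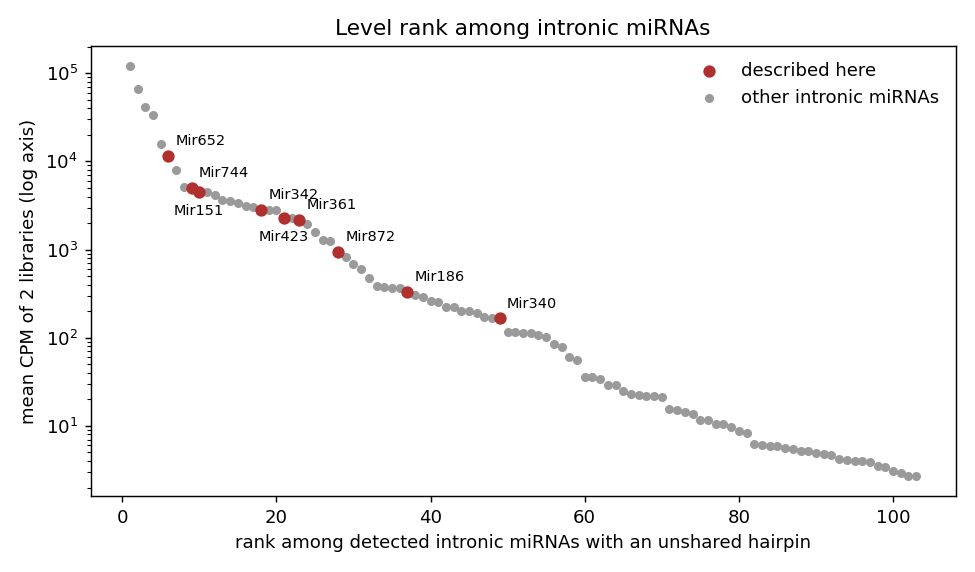
Mean CPM of 2 libraries on a log axis against rank, for the 103 detected intronic miRNAs whose hairpin shares no 20 bases with another. Red points are the 9 described here that belong to this class (not Mir28a), from Mir652 at rank 6 to Mir340 at rank 49, and grey points are the others.

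Other miRNAs listed for broadly expressed hosts covered a wider range. Of 28 listed, 27 had an entry, and all 27 were detected, summing to 15.8% ± 0.834 of the counts (SD, n = 2), against 3.11% ± 0.0608 for the 10. Their median was 1145 CPM and their range 3.37 to 41466 CPM. By the annotation used, 23 of the 27 lie in an intron of a protein-coding gene on their strand, 2 overlap an exon and 2 (Mir425 and Mir328) lie outside such a gene. The 23 intronic ones held 15.3% ± 0.823 of the counts, also with a median of 1145 CPM. Mirlet7g in Wdr82, at 41466 ± 2860 CPM, Mir26b in Ctdsp1, at 33998 ± 382, and Mir30e in Nfyc, at 33910 ± 3920, all lay above Mir652 in both libraries. Of the 27, 8 share 20 bases with another hairpin, Mir30e among them, and can be under-counted if it lies elsewhere in the genome. The 13 miRNAs listed for hosts of restricted or imprinted expression held more, 28.3% ± 0.204 of the counts, with a median of 3023 CPM. They were led by Mir335 in Mest (119648 ± 7637 CPM), Mir126a in the endothelial gene Egfl7 (72473 ± 3594) and Mir208b in the myosin gene Myh7 (66568 ± 359). Of the 13, 4 share 20 bases with another hairpin on either strand, Mir126a among them, and can be under-counted if it lies elsewhere. The other myosin-hosted miRNAs were Mir208a in Myh6, with 6542 CPM in replicate 1 and 9382 CPM in replicate 2, and Mir499 in Myh7b, with 2896 and 3149 CPM.

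The entries nearest in level, by the distance over both libraries on the log2(CPM + 1) scale, came from several kinds of gene. Mir483 of the Igf2 gene lay nearest to Mir744, at a distance of 0.04, and Mir543 nearest to Mir340, at 0.03. Mir361 lay nearest to Mir188 (0.06), an intronic miRNA of Clcn5, and Mir151 to Mir93 (0.08), an intronic miRNA of Mcm7. Mir28a lay nearest to Mir145a (0.09), the smooth muscle miRNA, and Mir872 to Mir210 (0.12), the hypoxia miRNA. Mir186 lay nearest to Mir27a (0.11), Mir342 to Mir296 (0.15) and Mir423 to Mir181d (0.15). Mir652 had no close neighbour, the nearest being Mir22 at 0.28. With 2 libraries, such closeness describes level alone. The second nearest were Mir20a (Mir744), Mir574 (Mir340), Mir15a (Mir361 and Mir423), Mir487b (Mir151), Mir301 (Mir28a), Mir337 (Mir872), Mir300 (Mir186), Mir149 (Mir342) and Mir30d (Mir652). Of all these, Mir27a, Mir487b and Mir337 share 20 bases with another hairpin and can be under-counted if it lies elsewhere in the genome.

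The seed of miR-28a-5p is shared with miR-708-5p, and the seed of miR-423-5p with miR-6921-5p, and no other arm of the 9 genes shared its seed with another mature sequence of the RefSeq table. Mir708, in an intron of Tenm4, had 1963 counts (454 CPM) in replicate 1 and 2268 (591 CPM) in replicate 2. Mir28a therefore exceeded its seed partner by 2.72-fold in replicate 1 and 2.31-fold in replicate 2, and both were higher in replicate 2. Mir708 shares 20 bases with another annotated hairpin, so its level can be under-counted if that hairpin lies elsewhere in the genome. Mir6921 had 2 and 1 counts, at or under the limit of 3 counts that a count of 0 allows. Mir28b, another miRNA of the miR-28 family, had 2 and 4 counts.

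Among the 10, level ran with the base composition of the hairpin, a comparison that was not planned. Mir186 (33.8% G and C), Mir340 (37.8%), Mir872 (39.5%) and Mir361 (41.4%) were the 4 poorest in G and C, and 3 of these were the 3 lowest in level. The 6 others had 50.0% to 57.4% and lay between 1301 and 11425 CPM. Across the 10 miRNAs, which are not independent replicates and share the same libraries, Pearson's r between G and C content and log2(CPM + 1) was 0.78 and Spearman's rho was 0.71. Across the 94 other detected intronic miRNAs with an unshared hairpin the values were -0.07 and -0.07, so the relation seen in these 10 was not seen in the wider class.

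**Figure D5:**
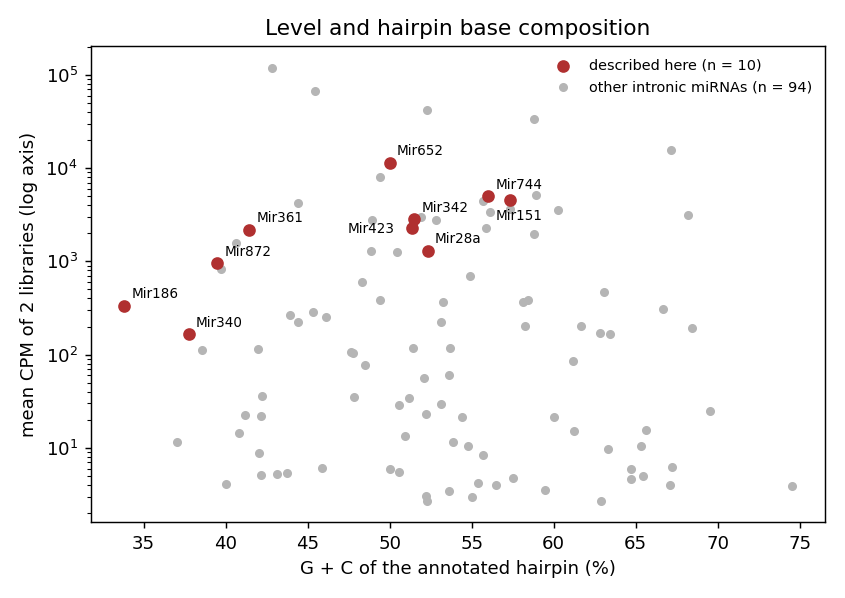
Mean CPM of 2 libraries on a log axis against the G and C content of the annotated hairpin. Red points are the 10 miRNAs described here, from Mir186 at 33.8% to Mir151 at 57.4%, and grey points are the 94 other detected intronic miRNAs with an unshared hairpin, which show no such trend.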

How the data were processed

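Small RNA libraries of embryonic heart (2 libraries, 1 group; size range below 30 per the labels, no unit given) were taken from whole-number counts per miRNA gene that the authors deposited, 1 table per library, not normalized and not pooled. Build mm10 and GENCODE M4 are named in the deposited descriptions; no source used here names the aligner or counter. Strand column 3 was used, as the rule for the 10 miRNAs fixes. Of all reads, 53.1% and 52.8% in replicates 1 and 2 were on genes of that strand, 30.6% and 30.1% mapped to several places, 11.7% and 12.2% did not map and 4.58% and 4.89% met no gene. The 4 lines naming no gene were left out of totals, and 3 counts correspond to 0.693 and 0.781 CPM.

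Symbols, hosts and introns came from GENCODE M21 (same assembly; 1894 of 1973 entries named; principal transcript of each host), and mature sequences from RefSeq, whose synonyms also gave the entries of 4 listed names. The libraries were not the same library deposited again: counts over 396 entries differed (chi-square 46024.9, 395 degrees of freedom). Tools were R 4.3.3, edgeR 4.0.16 (TMM), DESeq2 1.42.0 (size factors), Python 3.11.15, numpy 2.4.6, pandas 2.3.3, scipy 1.17.1 and matplotlib 3.10.9. Ratios, intervals and the 1.5-fold count were tested on simulated data. The 10 miRNAs, the lists and the tests were chosen with earlier results of these data known. Genes named beside the 10 are the 2 entries nearest in level to each, entries sharing a seed, the 3 highest of each host list, blood markers and overlapping genes; Mir208a, Mir499, Mir28b, Mir6921, Mir425, Mir328 and the other cell type markers were added after their values were seen.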

Additional observations from a re-analysis of the deposited data

How the results depend on the processing

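Detection of all 10 miRNAs and the absence of opposite-strand reads kept their values under the alternatives run. The count of 0 past 1.5-fold did so at every scaling, pseudocount and filter tried, and at the higher fold limit. The number of neighbouring pairs that did not overlap was 7, or 8 after scaling to hairpin length, under settings that hardly change the ratio between libraries. It was not counted with TMM or median-of-ratios factors. The latter raise every log2 ratio of replicate 1 to replicate 2 by 0.114, which is enough for Mir744 and Mir151 to overlap. At the lower fold limit tried, 2 of the 10 passed, against 24.7% of the 170 entries. With all reads as the total, the median of the 10 was 1188 and their sum 16451 CPM, against 2242 and 31063 CPM. Without the most abundant gene in the total these were 2548 and 35289, and with both strands counted the sum was 29619. Scaling to hairpin length gave a median of 2020. Each left-out replicate gave a median between 2164 and 2320 and a sum between 30633 and 31493 CPM. Apart from leaving out a replicate, these settings change the total or the length divisor, not the reads of the 10. With either replicate left out the order of the 10 was the same but for Mir423 and Mir361, with Mir361 above Mir423 without replicate 1; whether neighbours overlap needs both libraries. The planned search of the whole genome for copies was not run; annotated transcripts were searched instead, where 18 of 18 mature sequences, or 17 by their first 18 bases, had no other match. No paired analysis was possible because there is 1 group.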
